A study of Mus musculus with 10 samples.

Results

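A set of 10 genes of blood vessel walls, of the 22548 genes in the table, was chosen by symbol: Pecam1, Cdh5, Kdr, Flt4, Emcn, Tek, Stab2, Ly6c1, Vwf and Eng. They were read in RNA-seq libraries of osteocytes from the femurs of 5 mice that bore myeloma (MM) and 5 control mice (No MM), 1 library per mouse. All mice carry the strain label C57BL/6, with male sex and an age of 8 weeks. Whether this is the age at injection or when the bones were taken is not given in the sources used here. The MM mice had received Vk12598, a mouse myeloma line of the Vk*MYC model, by injection into the femur. The bones were examined at week 6. The No MM mice had received no myeloma cells, and the study's methods describe control mice given PBS in the same volume. Vk12598 is a single transplanted line. Marrow was removed and the bone pieces went through rounds of collagenase and EDTA, and no sort for osteocytes or against vessel cells is described. The study reports that the isolated osteocytes were characterized, and its methods list stains for proteins such as sclerostin and podoplanin.

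Endothelial cells line all vessels and are joined to each other by junctions that hold VE-cadherin (Cdh5) and PECAM-1 (Pecam1). Their growth and survival are steered by VEGF through its receptors (Kdr and Flt4) and by angiopoietins through Tie2 (Tek). Most vessels of the marrow are sinusoids, wide and thin-walled channels whose cells take up waste from the blood through scavenger receptors such as Stab2, while capillaries close to growing bone are rich in Pecam1 and endomucin (Emcn).

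Between 31099174 and 39466332 reads were counted per library, and 16186 genes passed the filter on low counts. Levels are given as CPM, counts relative to the library total, which was scaled by edgeR's TMM method. The TMM factors were 0.8445, 1.021, 0.7854, 0.7225 and 1.115 in No MM 1 to 5, and 1.117 to 1.142 in MM. A lower factor gives a higher CPM for the same share of reads. In No MM 3 and No MM 4, 26.6% and 29.0% of the reads lay on immunoglobulin genes, against 0.637% to 3.86% in the other 8 libraries. The label of male sex went against the reads of 7 libraries. No MM 5, MM 9 and MM 10 held 5157 to 6766 reads of 4 Y-linked genes and 14 to 225 of Xist, whereas the others held 0 to 47 Y-linked and 951 to 30370 Xist reads. The osteocyte genes Dmp1 (112 to 885 CPM) and Sost (68.3 to 995 CPM) were read in every library. Only 0.395% of well-read genes had equal counts in the most alike pair of libraries, so none was a repeat deposit.

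All 10 vessel genes passed the filter, with at least 609 reads in each library. None passed edgeR's quasi-likelihood test for a difference of MM from No MM after Benjamini-Hochberg adjustment. That test called 0% of the 16186 genes, and the smallest adjusted p of any gene was 0.315. At an unadjusted p under 0.05, 3.81% of all genes were higher in MM and 10.3% were lower, and none of the 10 vessel genes was in either set. Groups that did not overlap were found for 0.729% (higher in MM) and 0.68% (lower in MM) of all genes, and again for none of the 10. DESeq2, run as a second test, called 1.17% of 17638 genes and none of the 10. Log2 fold changes of MM over No MM ran from -0.62 (Ly6c1) to 0.45 (Stab2), with 7 below 0 and 3 above. Their median was -0.22, against -0.03 over all tested genes, of which 52.7% lay below 0. These directions rest on the TMM factors, which were lower in every No MM library than in any MM library. A fit on plain library totals was not run. In these bulk libraries, a change in the number of vessel cells and a change in RNA per vessel cell cannot be told apart.

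**Figure D1:**
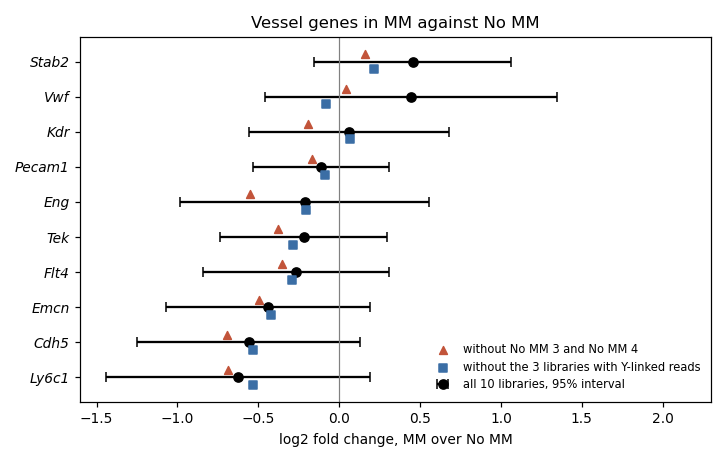
Log2 fold change of MM over No MM (horizontal axis) for each of the 10 vessel genes, with 95% intervals from edgeR over 10 libraries (black), without No MM 3 and No MM 4 (triangles) and without the 3 libraries with Y-linked reads (squares). Every black interval spans 0, and the point for Vwf moves from 0.45 to 0.05 and -0.08.

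The 2 junction genes are described first. Positions are those of the deposited table, which match the mouse build GRCm38 (GENCODE M21) for 9 of the 10 genes; for Cdh5 the end differs. Cdh5, on chr8:104101625-104144502 (plus strand), encodes VE-cadherin, the adhesion protein that is found on nearly all endothelium and little else. It stood at 141.9, 84.1, 106.6, 51.7 and 64.5 CPM in No MM 1 to 5, and at 95.2, 67.8, 36.4, 52.3 and 52.8 CPM in MM 6 to 10. No MM 1 was the highest and MM 8 the lowest library, and the other 8 were interleaved. The means were 89.8 ± 35.8 and 60.9 ± 22.2 CPM (SD, n = 5 each). MM over No MM gave a log2 fold change of -0.56 (SE 0.31, 95% interval -1.25 to 0.13), which did not pass edgeR's test (adjusted p = 0.431), nor did an exact two-sided permutation test over the mice (p = 0.167).

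Pecam1 (chr11:106654217-106750628, minus strand) encodes CD31, a junction protein that platelets and several leukocytes carry as well. Its levels were 163.9, 127.6, 133.1, 106.4 and 86.9 CPM in No MM 1 to 5, and 124.9, 110.6, 139.0, 104.3 and 93.4 CPM in MM 6 to 10. It was the steadiest of the 10 genes, with a highest library 1.89 times its lowest. Its log2 fold change was -0.11 (SE 0.19, 95% interval -0.53 to 0.31; edgeR, adjusted p = 0.810), and 0.01 without No MM 1. MM 8 was the lowest library for Cdh5 and the highest MM library for Pecam1. The summed level of 11 monocyte and macrophage genes was also highest in MM 8, at 3771 CPM against 1264 to 3498 CPM in the other libraries. Its part in the Pecam1 level was not tested.

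**Figure D2:**
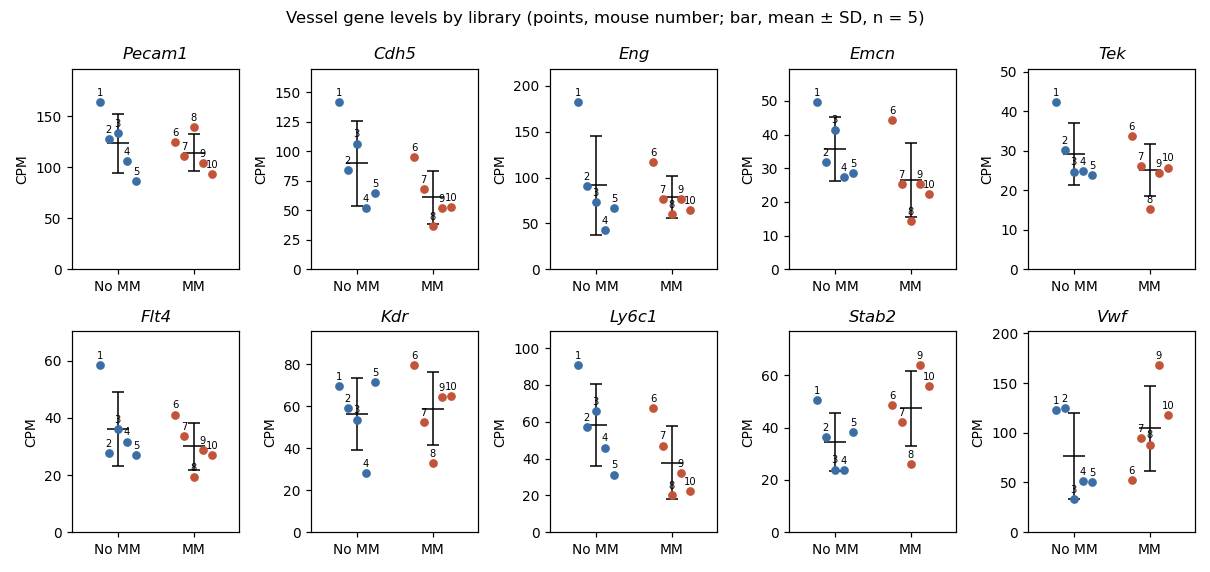
Level of each vessel gene in CPM (vertical axes, starting at 0) in the 5 No MM (blue) and 5 MM (red) libraries, each point marked with its mouse number, with mean ± SD (n = 5). The groups overlap in all 10 panels; mouse 1 is the highest point in 7 of them and mouse 8 the lowest in 5.

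Among the receptors of growth signals, Kdr encodes VEGFR2, the main VEGF receptor of blood vessels (chr5:75932827-75978458, minus strand). It was read at 69.6, 59.0, 53.7, 28.3 and 71.4 CPM in No MM 1 to 5, and at 79.7, 52.6, 32.8, 64.6 and 64.9 CPM in MM 6 to 10. The low values were those of No MM 4 and MM 8, 1 in each group. At 0.06 (SE 0.28, 95% interval -0.56 to 0.68), the log2 fold change was the nearest to 0 of the 10 genes (edgeR, adjusted p = 0.932). It was -0.20 without No MM 3 and No MM 4, -0.11 without No MM 4 alone and -0.07 without MM 6.

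Flt4 (chr11:49609263-49652739, plus strand) encodes VEGFR3, the receptor for VEGF-C and VEGF-D, which is found on lymphatic vessels and on marrow sinusoids. Its levels were 58.6, 27.8, 36.0, 31.7 and 26.9 CPM in No MM 1 to 5, and 41.2, 33.7, 19.4, 28.9 and 26.9 CPM in MM 6 to 10. No MM 1 stood above the rest of its group, and the other 4 No MM libraries lay within the range of the MM group. Flt4 had a log2 fold change of -0.27 (SE 0.26, 95% interval -0.84 to 0.31; edgeR, adjusted p = 0.647). It was -0.027 without No MM 1, so most of that value rested on this library. The 6 genes of the lymphatic list summed to 27.7 to 92.5 CPM in No MM and 48.6 to 109.8 CPM in MM. Mmrn1, which megakaryocytes express as well, made up most of this sum, with means of 29.8 CPM in No MM and 52.7 CPM in MM. Prox1, the lymphatic master regulator, lay between 0.267 and 0.802 CPM (7 to 31 reads), and Lyve1 between 2.16 and 5.88 CPM. The part of lymphatic vessels in the Flt4 level was not tested.

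Tek encodes Tie2, the angiopoietin receptor of endothelium and of some blood stem cells and monocytes (chr4:94739289-94874976, plus strand). It was read at 42.4, 30.3, 24.7, 24.8 and 23.8 CPM in No MM 1 to 5, and at 33.8, 26.1, 15.4, 24.3 and 25.8 CPM in MM 6 to 10. Of these, 7 libraries lay between 23.8 and 30.3 CPM, with No MM 1 and MM 6 above and MM 8 below. For Tek the log2 fold change was -0.22 (SE 0.24, 95% interval -0.74 to 0.30; edgeR, adjusted p = 0.680). It was -0.048 without No MM 1 and -0.088 without MM 8.

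Eng encodes endoglin, a co-receptor for BMP9 and TGF-beta on endothelium, stromal cells and activated macrophages (chr2:32646595-32682669, plus strand). Its levels were 182.4, 91.0, 73.6, 43.2 and 67.2 CPM in No MM 1 to 5, and 117.2, 76.3, 59.9, 76.2 and 65.0 CPM in MM 6 to 10. The spread in No MM was wide, since No MM 1 was the highest and No MM 4 the lowest of all 10 libraries. Endoglin's log2 fold change of -0.21 (SE 0.35, 95% interval -0.98 to 0.56) did not pass edgeR's test (adjusted p = 0.800). It was 0.20 without No MM 1 and -0.55 without No MM 3 and No MM 4. On the opposite strand, 61 bases of Eng overlap Fpgs, which held 738 to 2174 reads per library.

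Emcn encodes endomucin, a sialomucin of capillary and venous endothelium that is used with Pecam1 to mark capillaries near growing bone (chr3:137341067-137432185, plus strand). It was read at 49.7, 31.8, 41.5, 27.4 and 28.7 CPM in No MM 1 to 5, and at 44.4, 25.4, 14.4, 25.4 and 22.4 CPM in MM 6 to 10. All MM libraries except MM 6 lay below the lowest No MM library. The means were 35.8 ± 9.51 and 26.4 ± 11.0 CPM, and the log2 fold change was -0.44 (SE 0.29, 95% interval -1.07 to 0.19; edgeR, adjusted p = 0.490). Without MM 6 it was -0.71, at an unadjusted p of 0.0163 and an adjusted p of 0.304 (edgeR), the lowest over the 19 alternatives, which ran up to 0.735.

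The sequences before the start sites of the vessel genes were searched for AGGAAG, letters bound by ETS factors, a family that includes regulators of endothelial genes. RefSeq promoters (GRCm38.p6) were at hand for 7 of the 10 genes, and 4 of these (Emcn, Eng, Ly6c1 and Stab2) held AGGAAG on either strand, as did 29.5% of all 32851 promoters. GATAAG, letters bound by GATA factors, was in none of the 7 and in 6.55% of all promoters. Emcn and Eng are shown because each held AGGAAG once on each strand, as did 2.47% of all promoters. The letters, or CTTCCT where they lie on the other strand, are in capitals. The stretches are chr3:137340828-137341066 and chr2:32646345-32646594, 5′ to 3′ on the plus strand.
Emcn promoter: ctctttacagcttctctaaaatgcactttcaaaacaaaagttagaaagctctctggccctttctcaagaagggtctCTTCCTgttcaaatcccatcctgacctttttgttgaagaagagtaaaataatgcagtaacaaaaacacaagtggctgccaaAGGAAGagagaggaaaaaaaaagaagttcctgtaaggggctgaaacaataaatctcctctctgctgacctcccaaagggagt
Eng promoter: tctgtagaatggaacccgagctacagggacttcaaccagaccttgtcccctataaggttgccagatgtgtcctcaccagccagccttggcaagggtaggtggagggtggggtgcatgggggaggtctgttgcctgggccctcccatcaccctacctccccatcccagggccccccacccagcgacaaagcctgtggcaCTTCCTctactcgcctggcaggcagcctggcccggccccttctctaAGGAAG

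Ly6c1 encodes a small anchored surface protein of arterial and capillary endothelium (chr15:75044018-75048830, minus strand). Its levels were 90.9, 57.1, 66.0, 45.9 and 31.3 CPM in No MM 1 to 5, and 67.4, 47.1, 20.3, 32.1 and 22.1 CPM in MM 6 to 10. No MM 1, MM 6 and No MM 3 were the highest, and MM 8 and MM 10 the lowest. The means were 58.2 ± 22.4 and 37.8 ± 19.6 CPM. Its log2 fold change of -0.62 (SE 0.37, 95% interval -1.44 to 0.19) was the lowest of the 10 genes and did not pass edgeR's test (adjusted p = 0.455) or the exact permutation test (p = 0.167).

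The Ly6c1 counts may be affected by a near copy, which was not tested. Ly6c2, its neighbour on chromosome 15, marks monocytes and other marrow cells. The coding sequences of both are 393 bases long and differ at 9 positions (97.7% identity, GENCODE M21 transcripts on GRCm38). Reads were 76 bases long, and 162 of the 769 stretches of that length in the Ly6c1 transcript (21.1%) were also in the Ly6c2 transcript. The sequences below show how far a read can tell the genes apart. The first pair is coding exon stretch chr15:75045471-75045546 of Ly6c1 against chr15:75108612-75108687 of Ly6c2, in exon 4, which has the most differences of any such stretch, 2, in capitals. The second pair, chr15:75047394-75047469 against chr15:75110552-75110627 in exon 3, has 0 differences. All are 5′ to 3′ on the minus strand.
Ly6c1, exon 4: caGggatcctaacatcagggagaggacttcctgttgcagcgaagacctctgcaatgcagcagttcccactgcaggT
Ly6c2, exon 4: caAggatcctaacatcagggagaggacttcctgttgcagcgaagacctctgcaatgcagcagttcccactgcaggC
Ly6c1, exon 3: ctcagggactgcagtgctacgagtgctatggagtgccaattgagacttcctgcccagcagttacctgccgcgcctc
Ly6c2, exon 3: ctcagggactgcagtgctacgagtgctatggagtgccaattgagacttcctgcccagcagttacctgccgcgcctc

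Ly6c2 was read at 721, 658, 205, 791 and 352 CPM in No MM 1 to 5, and at 155, 548, 363, 325 and 302 CPM in MM 6 to 10. The ratio of Ly6c1 reads to Ly6c2 reads ran from 0.056 in MM 8 to 0.434 in MM 6. MM 6 was the second highest library for Ly6c1 and the lowest for Ly6c2, and No MM 4 was the highest for Ly6c2 and the sixth for Ly6c1. The log2 fold change of Ly6c2 was -0.69 (SE 0.41; edgeR, adjusted p = 0.456). How shared reads were assigned is not given in the sources used here.

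Stab2 encodes stabilin-2, the hyaluronan and waste receptor that defines sinusoidal endothelium (chr10:86841198-87008025, minus strand). It was read at 50.5, 36.3, 23.97, 23.7 and 38.4 CPM in No MM 1 to 5, and at 48.8, 42.0, 26.1, 64.0 and 55.9 CPM in MM 6 to 10. MM 9 and MM 10 were the highest, and No MM 3, No MM 4 and MM 8 the lowest. The means were 34.6 ± 11.2 and 47.4 ± 14.4 CPM. Stab2's log2 fold change of 0.45 (SE 0.28, 95% interval -0.16 to 1.06) did not pass edgeR's test (adjusted p = 0.464) or the exact permutation test (p = 0.167). It was 0.16 without No MM 3 and No MM 4, the pair rich in immunoglobulin reads, and 0.21 without No MM 5, MM 9 and MM 10, the libraries with Y-linked reads.

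Vwf encodes von Willebrand factor, the clotting protein that endothelial cells store in Weibel-Palade bodies and that megakaryocytes and platelets store as well (chr6:125546774-125686679, plus strand). Its levels were 122.5, 124.8, 33.1, 51.8 and 50.8 CPM in No MM 1 to 5, and 52.6, 94.9, 88.2, 168.3 and 117.6 CPM in MM 6 to 10. It was the most variable of the 10 genes, with a highest library (MM 9) 5.08 times its lowest (No MM 3). The log2 fold change was 0.45 (SE 0.41, 95% interval -0.46 to 1.35; edgeR, adjusted p = 0.630). It was 0.05 without No MM 3 and No MM 4, and -0.08 without the libraries with Y-linked reads.

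Vwf shared its lowest and highest library with genes of megakaryocytes and platelets. The 12 genes of that list, among them Pf4, Gp1ba and Itga2b, summed to 243 to 1812 CPM in No MM and 779 to 2703 CPM in MM. No MM 3 was the lowest and MM 9 the highest library for this sum, as for Vwf. All 12 had a log2 fold change above 0 (median 0.69), and none passed an unadjusted p under 0.05. The part of megakaryocytes and platelets in the Vwf level was not tested.

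**Figure D3:**
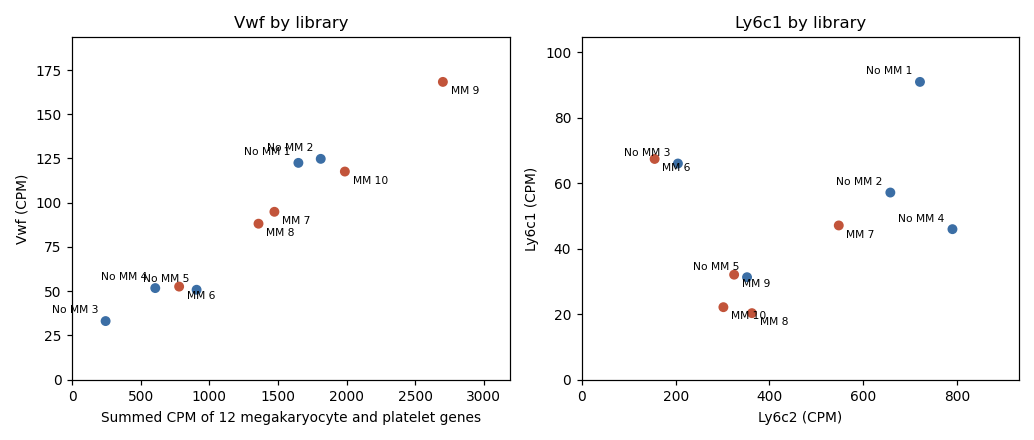
Left, Vwf in CPM against the summed CPM of 12 megakaryocyte and platelet genes; right, Ly6c1 in CPM against Ly6c2 in CPM; each point is 1 library (blue, No MM; red, MM). On the left the libraries run from No MM 3 (33.1 CPM of Vwf) to MM 9 (168.3 CPM), and on the right MM 6 and No MM 3 have high Ly6c1 beside low Ly6c2.

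The levels of the 10 genes were put in order per length, as CPM per kilobase of the gene length in the table, averaged over the 10 libraries. Ly6c1 was at 56.9 ± 26.8 (SD, n = 10), Pecam1 at 34.6 ± 6.75, Eng at 23.9 ± 11.0 and Cdh5 at 18.9 ± 8.01. Below them came Vwf (10.2), Kdr (9.73), Emcn (8.83), Tek (5.83), Flt4 (5.29) and Stab2 (4.98). Pecam1 lay above Eng in 9 of 10 libraries and Emcn above Tek in 10. Neighbours from Cdh5 down to Emcn kept their order in 7 of 10 libraries each, and Flt4 lay above Stab2 in 6, so the order of these neighbours varied between libraries. Differences between neighbours were not tested. Even the lowest of them, Stab2, was above 43.3% of the tested genes per length, and Ly6c1 was above 92.7%.

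The 10 genes did not vary as a block. Of them, 6 (Cdh5, Emcn, Ly6c1, Flt4, Tek and Eng) put the libraries in a broadly similar order. No MM 1 was first for all 6, and MM 8 was last for 5 and ninth for Eng. Pairs of the 6 had a Spearman's rho of 0.65 (Emcn and Tek) to 0.93 (Flt4 and Ly6c1). Kdr, Stab2, Vwf and Pecam1 each departed from that order, while Stab2 and Vwf had a rho of 0.66 with each other. No MM 1 was the highest library for 7 of the 10 genes and among the top 3 for all 10. These are ranks of TMM-scaled levels, with a factor of 0.8445 in No MM 1 against 1.137 in MM 6. Ranks on plain library totals were not taken. MM 6, of the other group, was among the top 3 for 7. MM 8 was the lowest for 5 genes and among the bottom 3 for 8, and No MM 4 was the lowest for Kdr, Stab2 and Eng. Averaged over the 10 genes, the log2 level relative to the mean of each gene was 0.74 in No MM 1 and 0.33 in MM 6, and -0.38 in No MM 4 and -0.59 in MM 8. The 2 ends of this order thus held a library of each group.

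**Figure D4:**
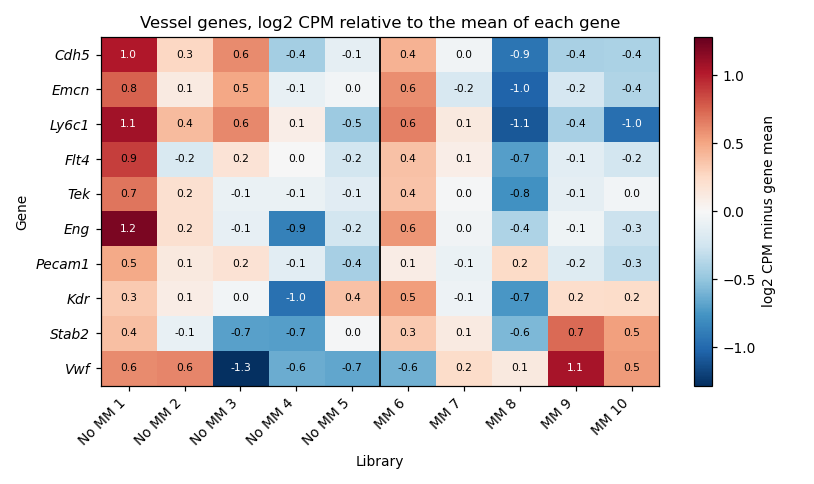
Log2 CPM of each vessel gene (vertical axis) in each library (horizontal axis) minus the mean of that gene over the 10 libraries; red is above and blue below that mean, and the line parts No MM from MM. No MM 1 is red for all 10 genes, MM 8 is blue for 8, and the rows of Stab2 and Vwf are reddest in MM 9.

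Other cell types differed between the same libraries. MM 8 had the lowest sum of 11 pericyte and smooth muscle genes (252.4 CPM, against 395 to 968 CPM elsewhere), besides the highest monocyte and macrophage sum. No MM 4 had the lowest sums of 8 osteocyte genes (370 CPM, against 406 to 2536 CPM) and of 9 osteoblast genes (2914 CPM, against 4143 to 50680 CPM), and its reads were rich in immunoglobulin. No MM 1 had the highest sum of 10 erythroid genes, at 62080 CPM against 1085 to 30830 CPM. Counts of passing genes stand beside the 3.81% higher and 10.3% lower of all tested genes. The 9 plasma cell genes summed to 14940, 26750, 98040, 112500 and 4091 CPM in No MM 1 to 5, and to 6310 to 9846 CPM in MM. The highest sums were those of No MM 3 and No MM 4, both rich in immunoglobulin reads, and No MM 5 lay below every MM library. Of these 9 genes, 8 were lower in MM at an unadjusted p under 0.05. Of 8 blood stem cell genes, some of which vessels express too, 2 were higher at that threshold, and none of 6 lymphatic, 10 neutrophil, or 8 B cell genes passed it. Of the 11 pericyte and smooth muscle genes 1 was lower, of the 11 monocyte and macrophage genes 1 was higher, and none of the osteocyte, osteoblast or erythroid genes passed. The part of these cells in the vessel gene levels was not tested.

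Ratios of reads within a library do not depend on library scaling, so each gene was set against Cdh5 as the most specific endothelial gene. Emcn had the steadiest ratio, at 0.418 ± 0.0714 in No MM and 0.429 ± 0.0463 in MM (SD, n = 5 each). Stab2 had 0.356, 0.432, 0.225, 0.459 and 0.595 reads per Cdh5 read in No MM 1 to 5, and 0.512, 0.620, 0.717, 1.23 and 1.06 in MM 6 to 10. All MM libraries except MM 6 lay above the highest No MM library, No MM 5. For Kdr the ratio was 0.491 to 1.11 in No MM and 0.776 to 1.24 in MM, and for Vwf 0.311 to 1.48 and 0.553 to 3.22. Eng had 0.690 to 1.29 and 1.13 to 1.65, and Pecam1 1.16 to 2.06 and 1.31 to 3.82, with the top value in MM 8. Each ratio depends on both of its genes, and Cdh5 itself had a log2 fold change of -0.56 (edgeR, adjusted p = 0.431). A ratio that was higher in MM thus does not show which gene differed. The groups overlapped for each of the 9 ratios, which were not tested.

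**Figure D5:**
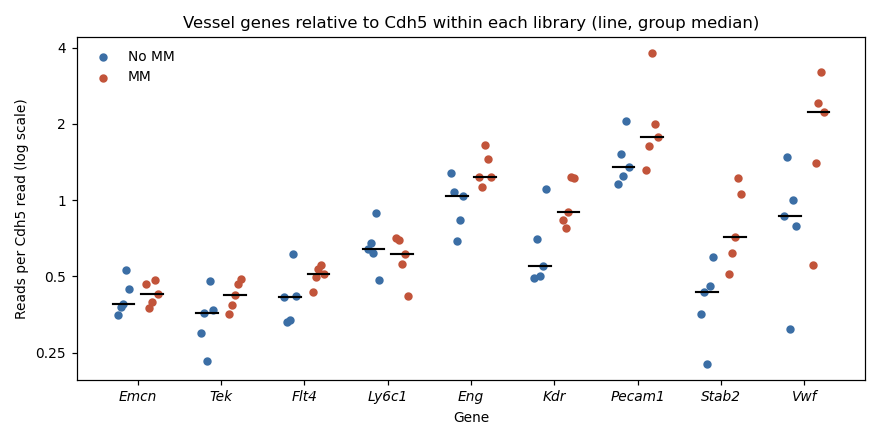
Reads of each of the other 9 vessel genes per Cdh5 read within a library (vertical axis, log scale), with No MM in blue, MM in red and a line at the median of each group. Medians for Emcn are 0.389 and 0.425, those for Stab2 0.432 and 0.717, and those for Vwf 0.864 and 2.23; the points of the groups overlap for every gene.

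Over the 10 libraries, the genes whose ranks were most like the averaged level of the 10 vessel genes were sought among all other tested genes. Esam, an endothelial adhesion molecule, was the most alike (Spearman's rho 0.976). Gipc3, Gm13056, Hoxb7, Sult1a1 and Uchl1 followed at 0.964, and Acad12 and Cmtm8 at 0.952. Esam was read at 64.0 CPM in No MM 1 and 22.2 CPM in MM 8, the same top and bottom libraries. These values rest on libraries that share the same scaling and are a description of 10 points.

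The 7 lists of related genes hold 97 distinct tested genes, apart from the 10. None was called after adjustment. At an unadjusted p under 0.05, 1 was higher and 8 were lower in MM, against 3.81% higher and 10.3% lower of all tested genes, so the share of the lists was near or below that of all genes. Without No MM 3 and No MM 4, 1 gene of the lists passed in all. The lists are taken in the order in which the 10 genes were.

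Of 26 further genes of endothelium, 19 had a log2 fold change below 0 (median -0.29), and 4 were lower at an unadjusted p under 0.05, beside 52.7% and 10.3% of all tested genes. Icam2, an adhesion molecule of endothelium and platelets, was read at 35.4 ± 11.3 CPM in No MM and 21.8 ± 2.65 CPM in MM (log2 fold change -0.70, SE 0.23, edgeR, adjusted p = 0.315). Ecscr, which encodes a surface protein of endothelium, was at a log2 fold change of -0.69 (edgeR, adjusted p = 0.329). Rasip1, which takes part in vessel lumen formation, had -0.92 (adjusted p = 0.327), and -0.24 without No MM 3 and No MM 4, its highest libraries at 52.6 and 60.4 CPM.

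The signals for Kdr, Flt4 and Tek were read as well. Of 16 genes of the VEGF and angiopoietin pathway, 1 was higher and 2 lower at an unadjusted p under 0.05. Of all tested genes, 3.81% were higher and 10.3% lower. Angpt2, the angiopoietin made by endothelium that mostly opposes Tie2 signals, was read at 36.5, 16.5, 88.2, 55.2 and 34.3 CPM in No MM 1 to 5, and at 26.7, 16.1, 5.69, 15.4 and 15.9 CPM in MM 6 to 10. All MM libraries except MM 6 lay below the lowest No MM library. Its log2 fold change was -1.53 (SE 0.46, edgeR, adjusted p = 0.315), or -0.88 without No MM 3 and No MM 4. Angpt1, the ligand that activates Tie2, had means of 16.2 ± 10.3 and 33.6 ± 14.9 CPM and a log2 fold change of 1.05 (SE 0.44, edgeR, adjusted p = 0.332). This value was 0.64 without No MM 3 and No MM 4, and 0.64 without the libraries with Y-linked reads. Angpt1 was highest in MM 9 and lowest in No MM 3, the libraries that were highest and lowest in the megakaryocyte and platelet sum. Vegfb, a ligand of VEGFR1, had -0.58 (adjusted p = 0.332).

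For endoglin, none of 15 tested genes of its BMP9 and ALK1 pathway passed an unadjusted p under 0.05. The nearest were the receptor gene Acvr2b (log2 fold change -1.30, adjusted p = 0.375), Smad4 (-0.32, adjusted p = 0.466) and the target gene Id2 (0.32, adjusted p = 0.468). Acvr2b was read at 0.755 to 5.59 CPM, and its log2 fold change was 0.19 without No MM 3 and No MM 4. None of 11 junction partners of Cdh5 and Pecam1 passed either. Cldn5, the tight junction claudin of endothelium, had a log2 fold change of -0.57 (SE 0.42), F11r -0.38 and Jup -0.30, with edgeR's adjusted p between 0.537 and 0.654.

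Stab2 is one of the genes of sinusoidal and scavenger endothelium, and none of 12 others passed an unadjusted p under 0.05, with 7 above 0 and 5 below. The smallest p belonged to Maf, a transcription factor of sinusoidal cells and macrophages (log2 fold change 0.46), Ctsl, a lysosomal protease (-0.28), and Il6st, the shared receptor chain of the IL-6 family (-0.32). Beside Emcn and Ly6c1, 14 genes of arterial or growth-zone capillaries were counted. Of them, 1 was lower at that threshold, beside 10.3% of all tested genes. That gene was Ly6a, which encodes Sca-1, at -1.26 (SE 0.56, edgeR, adjusted p = 0.349). Its highest library was No MM 4 with 399.6 CPM, and its log2 fold change was -0.79 without No MM 3 and No MM 4. Notch1 had 0.37 and Cd34 had -0.36, with adjusted p of 0.387 and 0.402 by edgeR.

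For Vwf, 10 of 11 partners and Weibel-Palade proteins were tested. Of them, 2 were lower at an unadjusted p under 0.05, beside 10.3% of all tested genes. The 2 were Angpt2, given above, and Plat, the tissue plasminogen activator, read at 2.65 to 16.4 CPM and highest in No MM 3. Plat had a log2 fold change of -1.01 (SE 0.40, edgeR, adjusted p = 0.323), or -0.61 without No MM 3 and No MM 4. Itga2b, the platelet integrin that binds von Willebrand factor, was read at 165.7, 180.4, 32.0, 81.7 and 91.8 CPM in No MM 1 to 5, and at 72.9, 173.9, 175.7, 350.5 and 235.7 CPM in MM 6 to 10. Its lowest and highest libraries were those of Vwf, No MM 3 and MM 9. The log2 fold change of Itga2b was 0.87 (SE 0.48, edgeR, adjusted p = 0.428). It was 0.44 without No MM 3 and No MM 4, and 0.29 without the libraries with Y-linked reads.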

How the data were processed

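Osteocyte RNA of 10 mice, 5 per group, was read in 1 library per mouse, with groups from the sample labels, and the mice are separate replicates. Libraries were stranded (TruSeq, total RNA) and read as 76-base paired ends. The submitters' processing notes name FastQC 0.11.5 and STAR; the counting program, its strand setting, the annotation and the build are not given in the sources used here. Gene coordinates in the table matched GENCODE M21 (GRCm38) for 68.3% of the 22284 gene identifiers found there, and for 9 of the 10 vessel genes, all but Cdh5. The authors deposited whole-number read counts per gene and library, which were used here with the deposited gene lengths. A normalized signal (count over a size factor), FPKM, and the p-value and log2 fold change of the study's comparison were likewise deposited, and none of these was used.

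Counts were tested in R 4.3.3 with edgeR 4.0.16 (filterByExpr, TMM, glmQLFit, glmQLFTest, no covariate), and p-values were adjusted over 16186 genes by the Benjamini-Hochberg method, with calls at 0.05. Single genes were also tested by an exact two-sided permutation test of log2 CPM (prior count of 2) over the 252 assignments of the mice. The fit was tested on simulated data. Alternatives were DESeq2 1.42.0, RLE and upper quartile scaling, no filter, at least 10 counts in every library, leaving out No MM 3 and No MM 4, leaving out immunoglobulin genes, and each mouse left out in turn. Leaving out libraries with Y-linked reads (over 1000) and a covariate for them were chosen after seeing the data. The vessel genes, the 7 pathway lists, the cell marker lists and the alternatives were chosen with earlier results of these data known. Named were the vessel genes, the 3 tested genes of smallest p in each pathway list, Ly6c2, the 8 genes of most similar ranks, and markers beside a result. Promoters are from RefSeq, and other sequences from GENCODE M21 transcripts.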

Additional observations from a re-analysis of the deposited data

Results flagged for a closer look

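A library far from the other 4 of its group was looked for in 22 sets of values, and chance picks about 1 in 20. A gap of over 0.71 of the whole range was found for 2 sets. Flt4 was at 58.6 CPM in No MM 1, against 26.9 to 36.0 CPM in the other No MM libraries, a gap of 0.715 of the range. Eng was at 117.2 CPM in MM 6, against 59.9 to 76.3 CPM in the other MM libraries, a gap of 0.713 of the range. No MM 1 and MM 6 were also the highest libraries of their group for Cdh5, Emcn, Ly6c1 and Tek.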

How the results depend on the processing

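Over 19 alternatives, of which 10 leave out 1 mouse, the 10 vessel genes gave 190 log2 fold changes, and 184 kept their direction. The other 6 were those of Kdr without No MM 3 and No MM 4 (-0.20), without No MM 4 (-0.11) and without MM 6 (-0.071), Pecam1 (0.012) and Eng (0.20) without No MM 1, and Vwf in the libraries without Y-linked reads (-0.079); the cause was not tested. With 1 mouse left out, Pecam1 ranged from -0.21 to 0.012, Kdr from -0.11 to 0.21 and Eng from -0.40 to 0.20. Without No MM 1, the values were -0.33 for Cdh5, -0.41 for Ly6c1, -0.29 for Emcn, -0.048 for Tek and -0.027 for Flt4. No vessel gene was called at an adjusted p under 0.05 under any of the 19. Their median log2 fold change lay between -0.38 (without MM 6) and -0.0073 (without No MM 1). Each of the 19 used scaling factors, and none used plain library totals. With 1 mouse left out, 0 to 3 vessel genes passed an unadjusted p under 0.05: Stab2 without No MM 1 (0.63) or MM 8 (0.61), Cdh5 without No MM 4 (-0.71), and Cdh5, Emcn and Ly6c1 without MM 6 (-0.78, -0.71 and -0.94).

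Over all genes, edgeR called 0 under each alternative and DESeq2 called 207; in edgeR 617 genes were higher and 1664 lower at an unadjusted p under 0.05. Of the genes in the pathway lists, 9 passed an unadjusted p under 0.05. This count was 1 without No MM 3 and No MM 4, 3 with Y-linked reads as a covariate, and 2 (without No MM 3) to 15 (without No MM 5) with 1 mouse left out. With 5 mice per group and a biological coefficient of variation of 0.46, the 95% interval of Ly6c1 reached from a fold of 0.369 to 1.14, and that of Vwf from 0.729 to 2.54. No paired analysis was possible because the labels number the mice 1 to 5 in No MM and 6 to 10 in MM and share no number.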
